A study of Mus musculus with 2 samples.

Results

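Notch signalling passes between neighbouring cells: a ligand on the sender cell binds a NOTCH receptor on the receiver, the receptor is cleaved, and its intracellular part joins RBPJ in the nucleus to switch on target genes of the HES and HEY family. In the cochlea, the spiral organ of hearing, the pathway is known for setting the mosaic of hair cells and supporting cells, in which HES and HEY repressors hold supporting cells back from the hair cell fate. In blood vessels it is known for arterial identity and for the upkeep of pericytes and smooth muscle. The 10 genes described here were taken by symbol from the 32285 genes of the matrices, and all 10 were found: the ligands Jag1 and Dll4, the receptors Notch1, Notch2 and Notch3, the receptor-modifying glycosyltransferase Lfng, and the target genes Hes1, Hey1, Hey2 and Heyl. The questions were which cells held ligands, receptors and targets, and whether Hes1, which was lower in the treated library as a whole, was lower within each class of cells.

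Inner ear tissue labelled sensory epithelium came from wild-type CBA/CaJ mice aged 4 to 6 weeks. In the AAV-Isl1 plus noise group, adeno-associated virus with the gene for the LIM homeodomain transcription factor Isl1 was given to the ear before noise of 105 dB between 1 and 20 kHz lasting 2 h. The labels name no promoter and no cell type for the vector. The noise-only group was made up of the opposite, untreated ears of the same mice, so both groups had been exposed to noise and no ear without noise was analysed here. Tissue was taken 2 days after noise, and ears of 5 mice were pooled into 1 library for each group. With 1 library a group there is no replicate and no test between groups, and intervals below cover counting error only. A ratio is AAV-Isl1 plus noise over noise only, with an exact 95% interval.

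The AAV-Isl1 plus noise library held 24209 barcodes and 40268563 UMIs (unique molecular identifiers, which mark single mRNA molecules), and the noise-only library held 21068 barcodes and 38330528 UMIs. After filtering, 21736 and 18757 barcodes were kept, with medians of 1086 and 1048 UMIs. Both numbers lie far above the cell number given in the labels, and kept barcodes are called cells with that limit. The libraries shared 145 barcodes. The 10 genes and 73 other listed pathway genes were left out of the genes used for joint clustering. That clustering gave 28 clusters, of which 21 were named from markers as 14 classes. Of the 21 classes and unnamed clusters, 19 had at least 100 cells in each library and were compared. Schwann or satellite glia-like cells were the class with the most cells (4417 and 6604), while hair cell-like cells numbered 468 and 148 and cochlear non-sensory epithelium-like cells 752 and 918, so most of the tissue labelled sensory epithelium was not hair cell or supporting cell by its markers. The non-sensory epithelium-like class was a single cluster, with Epyc, Otog, Otogl, Epcam, S100a1 and Slc26a4 as its markers. The other listed markers did not pass: Gjb2, Gjb6, Fgfr3, Slc1a3, Prox1, Tectb, Cdh23, Lgr5, Sox10, Sox2 and Car14. Otog, Otogl, Epcam and Slc26a4 also passed in unnamed cluster 12, so the name is a likeness by these markers only. In every class compared the median UMIs per cell were lower in the AAV-Isl1 plus noise library.

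Ligands were highest in cells of the vessels. Jag1, a Jagged ligand, stood at 82.0 CPM (counts per 1e6 UMIs of the class) in pericyte or smooth muscle-like cells of the AAV-Isl1 plus noise library and at 90.9 CPM in those of the noise-only library. Endothelial-like cells followed with 48.2 and 47.3 CPM, and hair cell-like cells with 42.3 and 46.1 CPM. The intervals of endothelial-like and hair cell-like cells overlapped in both libraries, so their order was not settled. Cluster 16, led by Them5 and Igfbp6, held 27.4 and 42.6 CPM of Jag1. Cochlear non-sensory epithelium-like cells held 20.3 and 32.5 CPM, with a ratio of 0.625 whose interval from 0.352 to 1.07 includes 1.

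Dll4, the Delta-like ligand of endothelium, was almost wholly endothelial. Endothelial-like cells held 75.0 CPM in the AAV-Isl1 plus noise library and 62.8 CPM in the noise-only library, and they gave 83.0% and 88.4% of all Dll4 UMIs. The next highest value in either library was 6.30 CPM of Dll4, in noise-only erythroid-like cells. Within endothelium, arterial endothelial-like cells held 113 and 75.6 CPM of Dll4, venous endothelial-like cells 91.9 and 65.0 CPM, and capillary endothelial-like cells 58.4 and 61.1 CPM. The intervals of these Dll4 ratios include 1 in all 3 sub-classes, and the arterial and venous levels overlap in both libraries. Jag1 followed another order there, with 99.8 and 110 CPM in arterial, 50.4 and 45.4 CPM in venous and 23.9 and 28.4 CPM in capillary endothelial-like cells. The arterial sub-class had the highest value of either ligand in both libraries.

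Jag2, a second Jagged ligand from the list of other pathway genes, was also highest in endothelial-like cells, at 87.7 and 91.1 CPM. Hair cell-like cells held 43.9 CPM of Jag2 in the AAV-Isl1 plus noise library and 84.5 CPM in the noise-only library, from 27 and 22 UMIs, a ratio of 0.520 (0.285 to 0.958). In cluster 19, which carried neuron markers but stayed unnamed, Jag2 was higher in the AAV-Isl1 plus noise library, at 25.4 against 16.7 CPM, a ratio of 1.53 (1.17 to 2.00), where 3.51% of genes were higher by 1.5-fold. Erythroid-like cells held 3.27 and 6.30 CPM of Jag2.

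**Figure D1:**
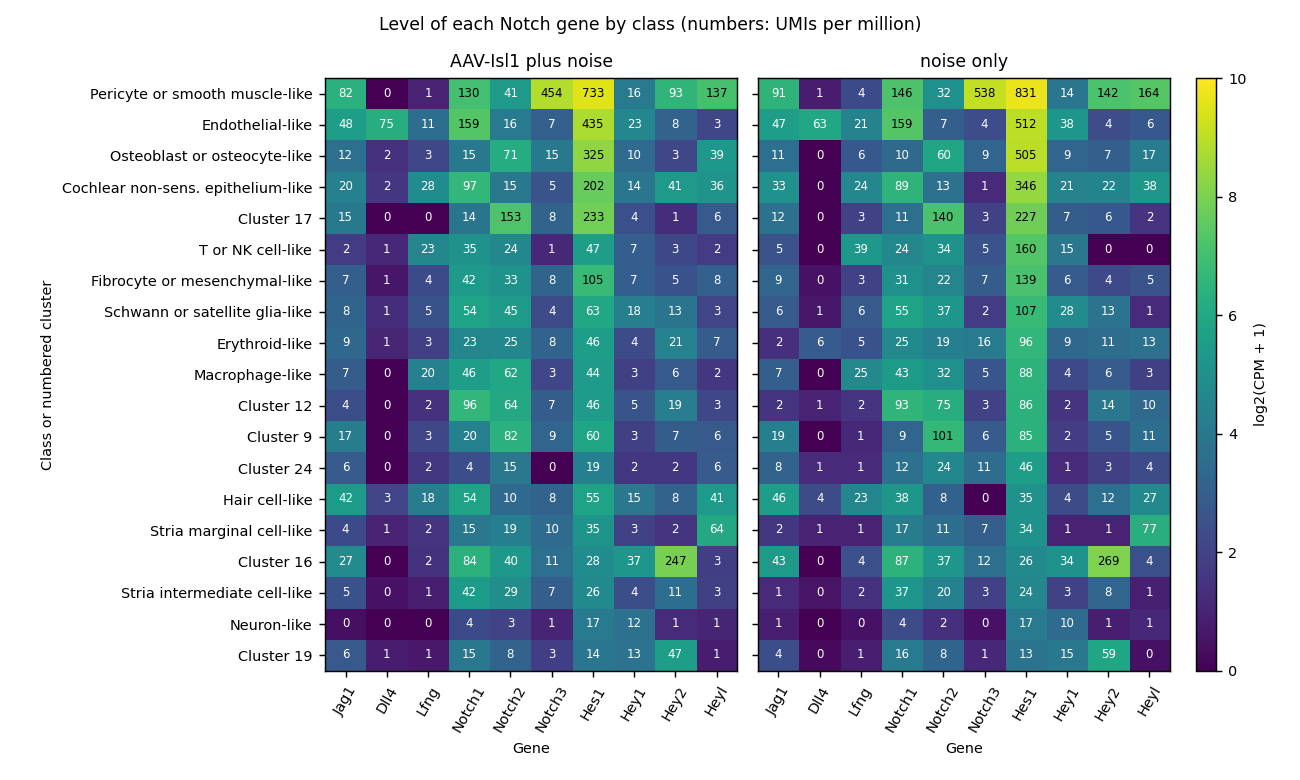
Level of each of the 10 genes (columns) in each class or numbered cluster (rows) of the AAV-Isl1 plus noise library (left) and the noise-only library (right); numbers are CPM and colour is log2(CPM + 1). Dll4 is high in 1 row (endothelial-like, 75.0 and 62.8 CPM), Notch3 in 1 row (pericyte or smooth muscle-like, 454 and 538 CPM) and Hey2 most in cluster 16 (247 and 269 CPM), while Notch1 is spread over many rows.

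Receptors divided the tissue among them. Notch1 was highest in endothelial-like cells, at 159 CPM in both libraries, then in pericyte or smooth muscle-like cells at 130 and 146 CPM. Cochlear non-sensory epithelium-like cells held 97.5 and 88.9 CPM of Notch1, close to cluster 12 (led by Vmo1 and Crhbp) with 96.2 and 93.3 CPM. Notch2 was highest outside the vessels: cluster 17, led by Krtdap and Prg4, held 153 and 140 CPM, cluster 9, led by Slc6a13 and Slc22a2, held 82.2 and 101 CPM, and osteoblast or osteocyte-like cells held 71.4 and 60.2 CPM. Notch3, the receptor of mural cells, stood at 454 and 538 CPM in pericyte or smooth muscle-like cells, which gave 69.7% and 85.1% of its UMIs. The next highest value of Notch3 in either library was 15.8 CPM, in noise-only erythroid-like cells.

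Among mural cells, Notch3 and Notch1 were both higher in the pericyte-like sub-class. Notch3 stood at 562 and 656 CPM in pericyte-like cells and at 424 and 459 CPM in smooth muscle-like cells. Notch1 stood at 235 and 227 CPM in pericyte-like cells and at 71.7 and 87.1 CPM in smooth muscle-like cells, and the intervals of the sub-classes do not overlap in either library. Jag1 showed no such step, at 97.3 and 96.1 CPM in pericyte-like and 80.7 and 88.6 CPM in smooth muscle-like cells. Pericyte or smooth muscle-like cells therefore held a ligand and 2 receptors at their first or second level among the classes, and endothelial-like cells held Dll4, Jag1 and Notch1.

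Lfng, which encodes the Fringe enzyme that adds sugar to NOTCH and changes which ligands it answers to, had low counts throughout. Cochlear non-sensory epithelium-like cells held 28.4 and 23.9 CPM, T or NK cell-like cells 23.1 and 38.9 CPM and macrophage-like cells 20.2 and 25.3 CPM, with overlapping intervals. In endothelial-like cells Lfng was at 11.4 and 21.1 CPM, from 17 and 41 UMIs, a ratio of 0.539 (0.287 to 0.970). Without the sub-cluster led by myelin genes that ratio was 0.591 with an interval from 0.302 to 1.10. Within the epithelium, sub-cluster 3, led by Gad1, Otol1 and Spp1, held most Lfng, at 68.5 and 77.3 CPM.

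The 4 target genes had different homes. Hes1, the repressor that answers NOTCH in many tissues, was highest in pericyte or smooth muscle-like cells, at 733 CPM in the AAV-Isl1 plus noise library and 831 CPM in the noise-only library, and next in endothelial-like cells at 435 and 512 CPM. Hey2, a repressor known from arteries and from supporting cells of the cochlea, was highest in cluster 16, at 247 and 269 CPM, although it had been left out of the clustering genes. Pericyte or smooth muscle-like cells followed for Hey2 with 93.1 and 142 CPM, and cluster 19 with 47.2 and 58.9 CPM. Heyl, another HEY repressor, was highest in pericyte or smooth muscle-like cells at 137 and 164 CPM, with stria marginal cell-like cells second at 63.9 and 76.6 CPM. Hey1 was low everywhere, at 37.1 and 33.8 CPM in cluster 16, 23.4 and 37.6 CPM in endothelial-like cells and 18.1 and 27.6 CPM in Schwann or satellite glia-like cells. The same class led in both libraries for 8 of the 10 genes, all but Lfng and Hey1.

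Promoter windows of 250 bases before the start were read from RefSeq (GRCm38.p6) for 7 of the 10 genes. No window was available for Hes1, Hey1 and Heyl, so their promoters were not searched. The letters TGGGAA, the core that RBPJ is known to bind, were searched on both strands. At least 1 match stands in 21.6% of 32851 promoters, and in Hey2 and Lfng among the 7. The longer form CGTGGGAA, which contains the core, stands in 0.636% of all promoters, and again in Hey2 and Lfng, 1 match each. Both windows are shown because they are the ones with a match, and capitals mark TGGGAA or its reverse complement TTCCCA. The Hey2 window is chr10:30842784-30843033 on the minus strand, the Lfng window chr5:140607091-140607340 on the plus strand, each 5' to 3' along its gene.
Hey2: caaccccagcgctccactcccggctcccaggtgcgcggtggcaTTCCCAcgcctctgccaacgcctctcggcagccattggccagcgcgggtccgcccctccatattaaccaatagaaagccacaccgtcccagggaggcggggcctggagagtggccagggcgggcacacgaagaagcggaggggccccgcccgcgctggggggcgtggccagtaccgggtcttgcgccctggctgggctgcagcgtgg
Lfng: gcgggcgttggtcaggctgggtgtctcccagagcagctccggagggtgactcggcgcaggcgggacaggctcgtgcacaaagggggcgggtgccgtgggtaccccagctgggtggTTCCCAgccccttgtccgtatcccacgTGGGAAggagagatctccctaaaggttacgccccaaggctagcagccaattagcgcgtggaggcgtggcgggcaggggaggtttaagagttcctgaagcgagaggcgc
The E-box CACGTG, which HES and HEY proteins can bind, stands in 6.02% of promoters, and the Lfng window is the 1 of the 7 that holds it. These matches describe letters and do not show binding. Hey2 and Lfng shared no leading class.

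**Figure D2:**
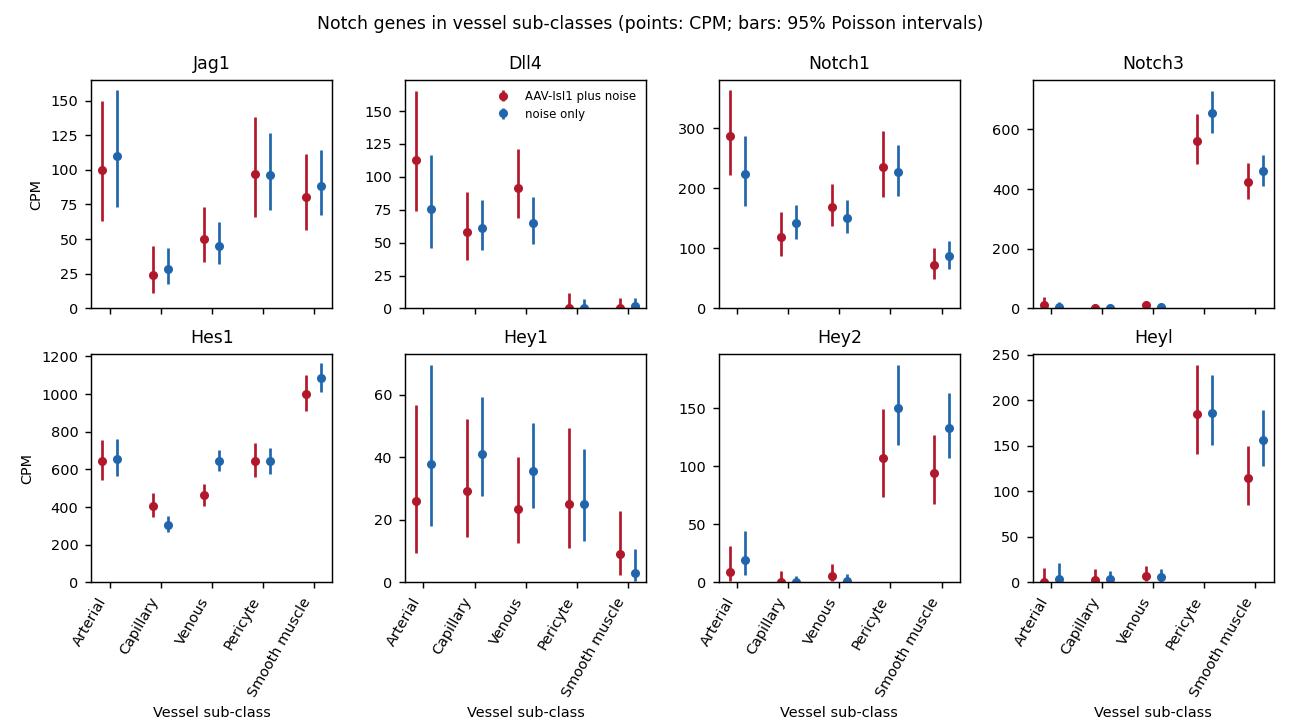
CPM (vertical axes, each from 0) of 8 of the genes in the 5 vessel sub-classes, AAV-Isl1 plus noise left of noise only in each pair; points are CPM of summed UMIs and bars exact 95% Poisson intervals. Dll4 is endothelial, Notch3, Hey2 and Heyl are mural, and Hes1 is lower with AAV-Isl1 in the venous sub-class (463 against 645 CPM) and higher in the capillary sub-class (406 against 307 CPM).

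Over all kept cells, Hes1 stood at 93.3 CPM in the AAV-Isl1 plus noise library and 150 CPM in the noise-only library, a ratio of 0.620 (0.594 to 0.648). It was the only one of the 10 genes past 1.5-fold over all cells, where 2.46% of 15600 genes with at least 50 UMIs were lower and 5.81% higher by that fold. With every class weighted by its mean share of UMIs in the libraries, the Hes1 ratio was 0.767. The ratio thus lay closer to 1 with class shares held equal. The same weighting took Notch3 to 0.938, against 0.711 over all cells, Heyl to 0.953, against 0.799, and Notch1 to 1.05, against 0.912, so the Notch1 direction turned. Notch2 was higher both over all cells, at 1.21 (1.11 to 1.32), and with fixed shares, at 1.18. The list of 19 immediate-early genes, which tissue dissociation can raise, had a median log2 ratio of -0.40 over all cells, against -0.02 for all genes. Of the 19, 1 was lower by 1.5-fold, where 2.46% of all genes were. Within the classes compared, the ratio of the summed list ran from 0.706 in erythroid-like cells to 1.44 in stria marginal cell-like cells. It was 0.794 in Schwann or satellite glia-like cells and 1.39 in cluster 12. The part of these genes in the Hes1 difference was not tested.

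Within classes, the Hes1 interval lay below 1 in 12 of the 19 classes and clusters and above 1 in 0. The interval stayed below 1 under every alternative with an interval in 6 of these: cochlear non-sensory epithelium-like, osteoblast or osteocyte-like, Schwann or satellite glia-like, macrophage-like and T or NK cell-like cells and cluster 12. It included 1 under 4 alternatives in fibrocyte or mesenchymal-like cells, 4 in cluster 9, and 1 each in endothelial-like, pericyte or smooth muscle-like and erythroid-like cells, while cluster 24 had too few UMIs for them. Alternatives that subtracted a level per cell gave no interval. Of the 6 named above, they covered only cochlear non-sensory epithelium-like and osteoblast or osteocyte-like cells. The others of the 6 held fewer Hes1 UMIs per cell than erythroid-like cells in both libraries. Hes1 was past 1.5-fold lower in 7 of the 17 with at least 50 Hes1 UMIs. The share of all genes lower by that fold is given for each of them in turn, and it ran from 1.86% in Schwann or satellite glia-like cells to 14.2% in T or NK cell-like cells. The ratio was 0.585 (0.494 to 0.690) in cochlear non-sensory epithelium-like cells, where Hes1 held 202 CPM in the AAV-Isl1 plus noise library and 346 CPM in the noise-only library and 4.52% of genes were lower by 1.5-fold. In osteoblast or osteocyte-like cells it was 0.644 (0.537 to 0.770), at 325 and 505 CPM, where 4.95% of genes were lower by that fold. In Schwann or satellite glia-like cells it was 0.592, at 63.3 and 107 CPM.

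Macrophage-like cells had a Hes1 ratio of 0.498 (background 3.93%), cluster 12 of 0.532 (5.26%), erythroid-like cells of 0.482 (7.49%) and T or NK cell-like cells, also led by the immunoglobulin genes Igkc and Iglc2, of 0.295 (14.2%). In cluster 24 the Hes1 counts were 9 and 34 UMIs, a ratio of 0.412 (0.174 to 0.878). Fibrocyte or mesenchymal-like cells stood at 0.757 (0.667 to 0.858) and cluster 9 at 0.711, short of that fold. The 4 clusters of the fibrocyte or mesenchymal-like class did not share 1 value: cluster 11, led by Slc4a11 and Otos, had 88.2 and 88.5 CPM of Hes1, while cluster 15, led by Dpep1 and Coch, had 150.0 and 251 CPM. The Schwann or satellite glia-like class was likewise mixed, with Hes1 at 71.6 and 155 CPM in myelin-marked cluster 2 and at 367 and 331 CPM in cluster 18, led by Fabp7 and Npy.

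The Hes1 interval included 1 in 7 of the 19. Cluster 17 held 233 and 227 CPM, a ratio of 1.03 (0.865 to 1.22), with enough UMIs (318 and 239) to exclude the ratio over all cells. Stria marginal cell-like cells held 34.8 and 33.7 CPM, stria intermediate cell-like cells 26.3 and 23.7 CPM, cluster 16 held 28.3 and 26.5 CPM, neuron-like cells 16.5 and 17.0 CPM and cluster 19 held 14.3 and 13.4 CPM. Hair cell-like cells had only 34 and 9 Hes1 UMIs, so a ratio of 1.60 came with an interval from 0.752 to 3.80, and no difference could be detected at this depth.

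**Figure D3:**
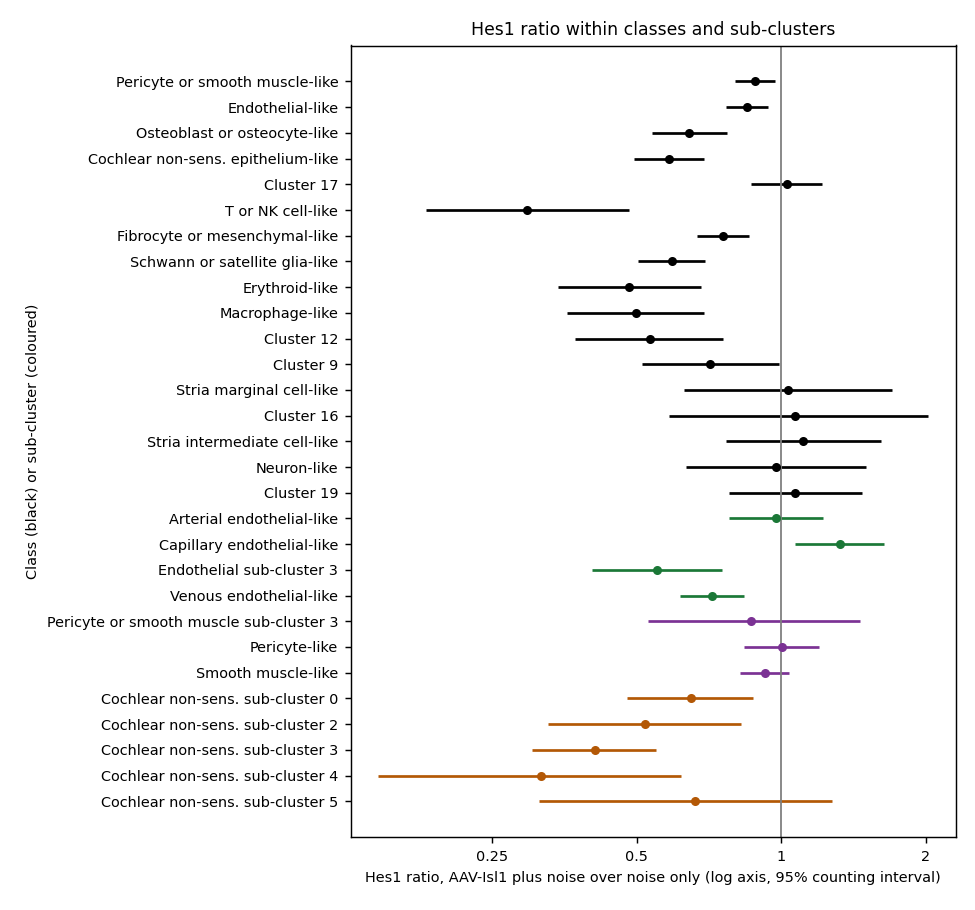
Hes1 ratio, AAV-Isl1 plus noise over noise only (log axis), for classes and clusters with at least 50 Hes1 UMIs (black) and for sub-clusters of endothelial-like (green), pericyte or smooth muscle-like (purple) and cochlear non-sensory epithelium-like cells (orange); bars are 95% counting intervals. The 5 cochlear sub-clusters drawn lie below 1, from 0.316 to 0.661, with 1 interval reaching past 1 (sub-cluster 1, with 38 UMIs and a ratio of 1.09, is not drawn), while vessel sub-clusters lie on both sides of 1.

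Values per cell are not scaled to depth, and median UMIs per cell were lower in the AAV-Isl1 plus noise library in every class compared. In cluster 17, for instance, the medians were 1357.5 and 2024 UMIs, while Hes1 stood at 233 and 227 CPM. Per cell, Hes1 was highest in pericyte or smooth muscle-like cells (72.9 UMIs per 100 cells in the AAV-Isl1 plus noise library and 98.6 in the noise-only library), then endothelial-like cells (53.3 and 86.1), cluster 17 (40.1 and 59.0), osteoblast or osteocyte-like cells (28.6 and 52.4) and cochlear non-sensory epithelium-like cells (26.5 and 56.8). Erythroid-like cells held 10.2 and 26.8, macrophage-like cells 7.05 and 19.3, T or NK cell-like cells 5.46 and 17.5 and Schwann or satellite glia-like cells 4.82 and 8.63. Among the 19 classes and clusters compared, the lowest values were 2.73 in the AAV-Isl1 plus noise library, in cluster 24, and 5.11 in the noise-only library, in stria intermediate cell-like cells. How much RNA from outside the cell each droplet held, and whether droplets shared it evenly, was not tested. The Hes1 of erythroid-like, macrophage-like and T or NK cell-like cells in the noise-only library lay above its lowest level, and whether these cells held Hes1 of their own or took it up in another way was not tested. Fibrocyte or mesenchymal-like cells held 14.1 and 23.1 as a class, with 25.2 and 45.8 UMIs per 100 cells in cluster 8 and 16.7 and 34.1 in cluster 15, and glial cluster 18 held 33.8 and 30.2.

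With the lowest level of each library taken off, an alternative chosen after seeing the data and run for classes at least 4-fold above it, the Hes1 ratio was 0.576 in cochlear non-sensory epithelium-like cells, 0.645 in osteoblast or osteocyte-like cells, 0.784 in fibrocyte or mesenchymal-like cells, 0.856 in endothelial-like cells, 0.895 in pericyte or smooth muscle-like cells and 1.05 in cluster 17, each within the counting interval of its ratio. For thinned shares, cells with fewer than 1000 UMIs were left out. Thinned to 1000 UMIs a cell, 14.7% (11.4 to 18.7) of cochlear non-sensory epithelium-like cells in the AAV-Isl1 plus noise library had a Hes1 UMI, against 22.3% (19.0 to 25.9) in the noise-only library. Stria intermediate cell-like cells thinned the same way had 2.35% and 2.24%, from median depths of 1457 and 2012 UMIs, where those of the epithelium were 1023 and 1290. Thinned shares were 3.12% and 5.37% in erythroid-like cells. In cluster 17 the thinned shares were 17.5% and 17.9%.

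**Figure D4:**
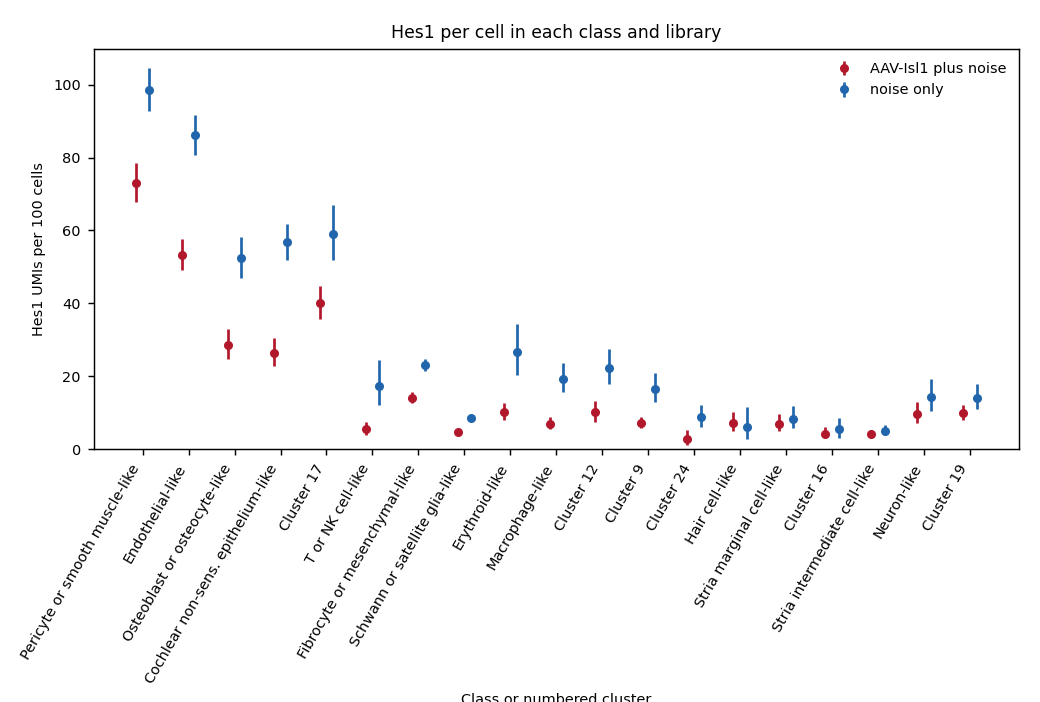
Hes1 UMIs per 100 cells (vertical axis) in each class or numbered cluster, AAV-Isl1 plus noise left of noise only; bars are exact 95% Poisson intervals. Pericyte or smooth muscle-like cells are highest (72.9 and 98.6) and stria intermediate cell-like cells are among the lowest (4.14 and 5.11). Values are not scaled to depth, and median UMIs per cell were lower in the AAV-Isl1 plus noise library in every class compared.

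In the vessels the lower Hes1 of the class as a whole did not hold in every sub-class. Endothelial-like cells had a class ratio of 0.849 (0.768 to 0.938). Arterial endothelial-like cells held 642 and 658 CPM of Hes1, capillary endothelial-like cells 406 and 307 CPM, a ratio of 1.33 (1.07 to 1.64), and venous endothelial-like cells 463 and 645 CPM, a ratio of 0.718 (0.616 to 0.835). The venous sub-class was led by Icam1 and by the immediate-early genes Atf3, Egr1 and Fosb. The summed immediate-early list had a ratio of 1.49 in the capillary sub-class and 0.957 in the venous one, and its part in Hes1 was not tested. Its level was 16043.4 and 10757.8 CPM in the capillary, 43446.5 and 45393.4 CPM in the venous and 36216.2 and 36027.7 CPM in the arterial sub-class. Whether the sub-classes differed by vessel type or by cell state was not tested. Endothelial sub-cluster 3, with Mag and Ugt8a, genes of myelinating cells, among its leading genes, held 229 and 67 cells and had a Hes1 ratio of 0.551. Without it the endothelial-like ratio was 0.935 (0.840 to 1.04), an interval that includes 1.

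Pericyte or smooth muscle-like cells had a class ratio of 0.881 (0.801 to 0.969) for Hes1. Pericyte-like cells held 643 and 642 CPM and smooth muscle-like cells 1002 and 1086 CPM, and both intervals include 1. A sub-cluster of this class was also led by myelin genes, with 159 and 46 cells, and without it the class ratio was 0.960 (0.870 to 1.06). The lower Hes1 of either vessel class thus fell within counting error once these cells were left out.

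In the epithelium, 4 of 6 sub-clusters had a Hes1 interval below 1. Sub-cluster 3, led by Gad1, Otol1 and Spp1, held 236 CPM of Hes1 in the AAV-Isl1 plus noise library and 578 CPM in the noise-only library, a ratio of 0.409 (0.302 to 0.549). Sub-cluster 0, led by Hamp2 and Epyc, held 310 and 478 CPM, a ratio of 0.648 (0.476 to 0.871). Sub-cluster 4 held 121 and 384 CPM, from 10 and 66 UMIs, and sub-cluster 5 held 117 and 178 CPM with an interval that includes 1. Sub-cluster 1, led by Basp1, held 120 and 110 CPM from 11 and 27 UMIs, a ratio of 1.09 (0.487 to 2.26). Sub-cluster 2 was led by Slc36a2 and held Pmp22 and Gldn, genes of myelinating cells, among its leading genes; without it the class ratio was 0.613 (0.509 to 0.734). At fixed sub-cluster shares it was 0.529. Over 12 alternatives, the Hes1 ratio of this class ran between 0.503 and 0.613. The immediate-early sum had a ratio of 1.07 in this class and the interferon-response sum 1.36, and their part was not tested. Jag1 in sub-cluster 3 was at 41.1 and 97.7 CPM, from 12 and 24 UMIs, a ratio of 0.421 (0.192 to 0.874).

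The HEY genes shared the direction of Hes1 in some classes and not in others. In cochlear non-sensory epithelium-like cells Hey2 was higher in the AAV-Isl1 plus noise library, at 40.6 against 21.9 CPM, from 40 and 33 UMIs, a ratio of 1.86 (1.14 to 3.04), where 9.51% of genes were higher by 1.5-fold. Hey2 UMIs per 100 cells were 5.32 and 3.59 in the epithelium, and 4.55 and 3.07 in erythroid-like cells. They were 3.45 and 1.36 in the main erythroid cluster and 0.399 and 0 in T or NK cell-like cells. The erythroid-like class also held cluster 26, of 62 cells, with Kcnc2 among its leading genes beside hemoglobin genes. Kcnc2 was also among the leading genes of cluster 19. The CPM of Hey2 in erythroid-like cells were also higher in the AAV-Isl1 plus noise library, at 20.7 against 11.0, from 38 and 7 UMIs. In pericyte or smooth muscle-like cells Hey2 was lower, at 93.1 against 142 CPM, a ratio of 0.656 (0.506 to 0.846), where 4.2% of genes were lower by that fold. Its ratios were 0.712 in pericyte-like and 0.708 in smooth muscle-like cells, each with an interval that includes 1. In cluster 19 the Hey2 ratio was 0.802 (0.684 to 0.941), and in cluster 16, where Hey2 is highest, 0.917 (0.758 to 1.11). Hey1 was lower in endothelial-like cells, at 0.624 (0.404 to 0.945), where 3.77% of genes were lower by 1.5-fold, and in Schwann or satellite glia-like cells, at 0.658 (0.480 to 0.892). Hey1 UMIs per 100 cells were 2.87 and 6.31 in endothelial-like cells, 1.38 and 2.23 in Schwann or satellite glia-like cells and 0.837 and 2.63 in erythroid-like cells. Heyl in pericyte or smooth muscle-like cells was at 0.834 with an interval from 0.668 to 1.04.

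Of the receptors, Notch3 in pericyte or smooth muscle-like cells had a ratio of 0.844 (0.748 to 0.951), and of 0.858 (0.754 to 0.974) without the sub-cluster led by myelin genes. Notch1 in endothelial-like cells was at 0.998 (0.839 to 1.18) while non-sensory epithelium-like cells had 1.10 (0.835 to 1.44). Notch2 in cluster 17, where it was highest, was at 1.09 (0.879 to 1.36). Notch2 was higher in macrophage-like cells, at 61.9 against 31.7 CPM, a ratio of 1.96 (1.31 to 2.97), where 7.1% of genes were higher by 1.5-fold. Notch2 UMIs per 100 cells were 9.98 and 6.96 there and 5.38 and 5.26 in erythroid-like cells. In fibrocyte or mesenchymal-like cells Notch2 and Heyl passed 1.5-fold higher, where 5.28% of genes did, although the interval of Heyl (0.853 to 2.72) includes 1. Notch2 UMIs per 100 cells were 4.50 and 3.69 there, below those of erythroid-like cells, and Heyl UMIs were 1.03 and 0.836, against 1.44 and 3.51 in erythroid-like cells. Dll4 in endothelial-like cells had a ratio of 1.19 with an interval from 0.916 to 1.56.

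Other genes of the pathway were counted from lists of 73 genes holding further ligands, receptor-modifying enzymes, proteases, nuclear partners, inhibitors and bHLH factors. Over all kept cells 65 were measured, and 0 were lower and 0 higher by 1.5-fold. Of all genes, 2.46% were lower and 5.81% higher by that fold. The median log2 ratio of the lists was -0.03, against -0.02 for all genes. In cochlear non-sensory epithelium-like cells 37 were measured and 0 were lower, where 4.52% of all genes were. Their median log2 ratio was 0.02, as over all genes there. In endothelial-like cells 44 were measured and 0 passed the fold in either direction. Of all genes there, 3.77% were lower and 5.39% higher by it. In pericyte or smooth muscle-like cells Tle1, a corepressor, was lower and Adam10, a protease that cleaves NOTCH, was higher, of 32 measured. Of all genes there, 4.2% were lower and 6.38% higher by that fold. Rbpj itself stood at 72.4 and 83.7 CPM in fibrocyte or mesenchymal-like cells and was highest in macrophage-like cells at 156 and 170 CPM. Nrarp, a feedback inhibitor induced by NOTCH, was highest in pericyte or smooth muscle-like cells at 101 and 81.9 CPM, a ratio of 1.24 (0.933 to 1.64). Mfng, another Fringe gene, was endothelial at 75.0 and 80.3 CPM, and Notch4, the endothelial receptor, stood at 39.5 and 45.3 CPM there.

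Across 21 classes and clusters, with both libraries summed, the genes whose log2(CPM + 1) went most closely with each member were taken among 10796 genes. Notch3 went with Acta2 (Pearson r = 0.92), Higd1b (0.92) and Mustn1, Dll4 with Tmem252 (0.90), Ptprb and Gkn3, and Jag1 with Prss23 (0.90), Tcf15 and Vcl. Hes1 went with Cavin1 (0.86), Rasd1 and Arntl, Heyl with Palld (0.85), Hey2 with Dmd (0.79), Notch1 with Mmd (0.79), Notch2 with Cox6b2 (0.84), Hey1 with Mid2 (0.82) and Lfng with Rbm33 (0.81). These correlations describe classes that share libraries and free RNA.

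In GENCODE vM21 (GRCm38), Hes1 lies at chr16:30064384-30067796 on the plus strand, Hey2 at chr10:30832359-30842801 on the minus strand and Notch3 at chr17:32120820-32166852 on the minus strand. Notch3 overlaps the antisense gene Gm17276, and Dll4 and Notch1 overlap genes on the opposite strand, so reads at these overlaps depend on the strand setting of the counting.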

How the data were processed

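UMIs were counted in 2 pooled libraries, 1 per group. The deposited matrices hold raw counts as whole numbers, from the authors, who used Cell Ranger 5.0 with STAR and mm10 (GRCm38) and Seurat 3.2.2, per the submitters' processing notes. Per the file headers the version was 5.0.1.

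The filter asked for 300 genes or more and for 20% mitochondrial UMIs or fewer per barcode. Scrublet in scanpy 1.11.5 called 0 doublets by its automatic threshold in either library, so a score of 0.195, set after these calls were seen at an expected rate of 0.06, removed 936 and 1196 cells. Counts were scaled to 10000 UMIs a cell. Of 3133 variable genes, 10 that were members or other listed pathway genes were left out. The remaining 3123 were used with 50 components, 15 neighbours and a Leiden resolution of 1. Names needed at least 3 markers, 4-fold above other cells and in 10% of its cells. That rule was widened after the clusters were seen, and sub-clusters (marker fold 2) were also split after the data were seen.

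Each gene's UMIs in a class and library, over the UMIs of all genes there, gave its CPM. CPM have exact Poisson, ratios exact conditional binomial and shares Clopper-Pearson intervals at 95%, covering counting error only. Counts of genes past a fold use genes with at least 50 UMIs over both libraries, and ratios from fewer are given with their UMIs. The ratio step was tested on simulated data. All 10 members are named. Other pathway genes are named with values from 200 UMIs over all kept cells, and likeness takes the 3 highest correlations. The members and lists were chosen with earlier results of these data known. Pathway list genes higher by 1.5-fold in cochlear non-sensory epithelium-like cells are not reported here. Whether RNA of the vector affects these genes was not tested.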

Additional observations from a re-analysis of the deposited data

Results flagged for a closer look

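Hey2 had a ratio of 1.86 in cochlear non-sensory epithelium-like cells, from 40 and 33 UMIs, with an interval above 1, while 2 other classes or clusters, pericyte or smooth muscle-like cells and cluster 19, had intervals below 1. Erythroid-like cells, a class that includes cluster 26 with Kcnc2 among its leading genes, held 20.7 against 11.0 CPM of Hey2, from 38 and 7 UMIs. Classes that moved in opposite directions drew attention to this gene. The difference between them was not tested, since each group is 1 library.

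Hes1 had a ratio of 1.33 in capillary endothelial-like cells, with an interval above 1, while 2 other endothelial sub-clusters, the venous sub-class and the one led by myelin genes, had intervals below 1. This opposite direction within 1 class was likewise not tested.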

How the results depend on the processing

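No paired analysis was possible because each group is 1 library pooled from 5 mice, and no replicate could be left out. Among the limits is depth, since 45.0% of AAV-Isl1 plus noise cells and 47.4% of noise-only cells held under 1000 UMIs, and the members had few UMIs in many classes. Results kept their values within counting error under median-of-ratios scaling, without shared barcodes and without the 5 cells with the most UMIs. They also did so without mitochondrial, ribosomal and hemoglobin UMIs. Alternatives added after the data were seen gave the same. These left out myelin-led sub-clusters, subtracted the lowest level per cell of any class or fixed the sub-cluster shares. Without the myelin-led sub-clusters, though, the Hes1 intervals of both vessel classes include 1. The Hes1 interval of cluster 9 includes 1 without shared barcodes, and also without the 5 cells with the most UMIs.

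With 500 genes or more and 10% mitochondrial UMIs or fewer, the Hes1 ratio moved to 0.879 in fibrocyte or mesenchymal-like cells, 0.467 in Schwann or satellite glia-like cells and 0.583 over all cells. The fibrocyte or mesenchymal-like interval then includes 1, as it does in the next 3 settings. The ratio there was 0.917 with no doublets removed and 0.935 at resolution 0.5. It was 0.932 with the members and other listed pathway genes kept among the clustering genes. Thinning to 1000 UMIs left out cells below that depth and kept 11944 AAV-Isl1 plus noise and 9857 noise-only cells. Its ratios thus differ from the others in depth and in the cells used. Over all thinned cells they were 0.521 for Hes1, 0.761 for Jag1, 0.566 for Lfng, 0.537 for Notch3 and 0.656 for Heyl. At fixed shares they were 0.609 for Lfng and 0.723 for Hes1. Most Schwann or satellite glia-like cells were left out, since their medians were 664 and 705.5 UMIs. Thinned Hes1 was 0.465 in Schwann or satellite glia-like cells, 0.614 in neuron-like cells and 0.507 in cluster 9. The neuron-like interval, from 0.141 to 2.67, was wide and includes 1. Subtracting the erythroid level, chosen after seeing the data, takes off more per cell than several classes hold in all and pushes ratios up by construction, so nothing rests on it. Hes1 was then 0.997 in endothelial-like cells, 0.847 in osteoblast or osteocyte-like cells and 1.40 in cluster 17, and it reversed to 1.04 in pericyte or smooth muscle-like cells. With genes counted from 1 UMI, 3 other pathway genes were higher over all cells, against 0. The cause was not tested.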
